A study of Mus musculus with 12 samples.

Results

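The genes described here are 10 of the 41079 gene IDs measured in every library: Fos, Fosb, Fosl1, Fosl2, Jun, Junb, Jund, Atf3, Egr1 and Ier2, chosen by gene name as AP-1 subunits and immediate early genes. Paired-end RNA-seq covered 12 libraries of mouse embryonic stem cells, the pluripotent cells of the early embryo kept in culture. Cells labelled Bod1L KO and WT were each taken with and without etoposide, a topoisomerase II poison that leaves DNA broken. The 4 groups, of 3 biological replicates each, were knockout with etoposide, knockout without it, wild type with etoposide and wild type without it. Both knockout groups also have tamoxifen in their titles and neither wild-type group does, so the loss of Bod1l and tamoxifen cannot be told apart. The dose and duration of etoposide and the way the allele was deleted are not given in the sources used here. The titles call the replicates biological, but separate cultures are not described. The p-values therefore cover variation among these libraries, which may be technical.

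AP-1 is a dimer of leucine zipper proteins in which a Jun family protein pairs with another Jun, a Fos family protein or an ATF protein and binds DNA. Many of these genes are immediate early genes, whose transcription starts within minutes of a growth signal or stress without new protein synthesis. Mitogen-activated kinases of the ERK, JNK and p38 branches drive them, in part through serum response factor at Fos and Egr1 and through Jun and ATF2 at Jun. DNA damage is a known inducer of Jun and Atf3.

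The upstream sequences of 4 genes with main results are printed. These are Fos, which was higher after etoposide, Jun and Atf3, which were higher both in the knockout and after etoposide, and Junb, which was lower in the knockout. Fosl1, with the largest etoposide changes of the tested members, had no sequence available. Each line holds the 250 bases before the transcript start, 5′ to 3′, from RefSeq on GRCm38.p6, a build other than the GRCm39 of the expression tables. Capitals mark TGACATCA, a form of the AP-1 and CRE octamer, in Jun, and the CRE core TGACG, or its complement CGTCA, in the others.
Fos (chr12:85473640-85473889, plus strand): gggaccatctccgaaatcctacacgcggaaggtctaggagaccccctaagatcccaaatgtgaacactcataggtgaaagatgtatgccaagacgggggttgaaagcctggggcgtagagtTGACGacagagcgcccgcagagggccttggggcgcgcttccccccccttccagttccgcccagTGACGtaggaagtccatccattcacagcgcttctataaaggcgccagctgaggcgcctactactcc
Jun (chr4:95052223-95052472, minus strand): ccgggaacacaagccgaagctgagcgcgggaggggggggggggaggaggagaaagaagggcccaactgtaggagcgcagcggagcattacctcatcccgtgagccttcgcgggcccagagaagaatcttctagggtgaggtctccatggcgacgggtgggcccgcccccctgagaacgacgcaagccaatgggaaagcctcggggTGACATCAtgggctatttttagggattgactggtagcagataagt
Junb (chr8:84978749-84978998, minus strand): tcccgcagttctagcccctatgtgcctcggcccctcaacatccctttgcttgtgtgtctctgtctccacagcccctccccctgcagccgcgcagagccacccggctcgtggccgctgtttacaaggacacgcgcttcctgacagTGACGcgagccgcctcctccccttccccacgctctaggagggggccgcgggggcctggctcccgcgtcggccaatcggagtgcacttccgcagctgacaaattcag
Atf3 (chr1:191183334-191183583, minus strand): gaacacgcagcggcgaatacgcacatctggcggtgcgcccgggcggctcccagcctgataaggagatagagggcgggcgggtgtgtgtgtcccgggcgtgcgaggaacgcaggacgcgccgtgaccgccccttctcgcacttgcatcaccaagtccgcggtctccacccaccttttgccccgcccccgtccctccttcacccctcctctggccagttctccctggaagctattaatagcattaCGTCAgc
The table held 7 of the 10 genes, without Fosl1, Egr1 and Ier2. TGACATCA stood 45 to 38 bases before the start of Jun and in no other of the 7, against 2.93% of all 32851 windows of 250 bases in the table. TGACG, a search added after the sequences had been read, was found in 4 of the 7, against 17.8% of all windows. It stood 129 to 125 and 66 to 62 bases before the start of Fos, 60 to 56 before Fosb, 106 to 102 before Junb and, on the other strand, 7 to 3 before Atf3. None of the 7 windows held the full octamer TGACGTCA (1.55% of all windows), the AP-1 heptamer TGACTCA (4.46%) or the CArG box bound by serum response factor (1.47%). All motifs were searched on both strands, and TGACGTCA contains TGACG. These are matches of letters in a short window, not measured binding sites. Sequence farther than 250 bases before the start was not searched, so a motif missing here, such as the CArG box at Fos, may lie beyond the window.

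Each library held 5.23 to 7.76 gigabases of aligned sequence, derived from coverage and FPKM together. Bod1l stood at 12.9, 12.4 and 11.7 TPM in treated knockout and 12.0, 11.2 and 11.5 TPM in untreated knockout libraries, against 46.5, 51.1 and 48.6 TPM in treated wild-type and 48.5, 48.8 and 50.6 TPM in untreated wild-type libraries. TPM, the unit of level used here, corrects for gene length and gives each library the same total. Stem cell markers were high in every library, at a summed 7031 to 8098 TPM for 7 genes such as Pou5f1 and Nanog. A list of 10 feeder fibroblast markers summed to 11.4 to 12.9 TPM in the 12 libraries, with Col3a1, Postn, Lum and Prrx1 under 0.15 TPM in each of them. Most of the sum came from Pdgfrb (4.25 to 5.53 TPM) and Thy1 (2.95 to 6.20 TPM). Col1a1 (0.637 to 1.63 TPM) and Twist1 (0.656 to 1.85 TPM) were also found in every library.

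Levels spanned a wide range. Ier2, a small nuclear protein gene of the immediate early class, had a mean of 114.0 TPM over the 12 libraries, above 87.6% of the 14107 genes tested. Jund followed at 45.4, Junb at 23.6 and Jun at 6.07 TPM. Fos, Atf3 and Fosl1 averaged 2.51, 2.49 and 2.25 TPM, and Fosl2 1.36 TPM. Egr1 (0.636 TPM) and Fosb (0.517 TPM) lay under the minimum mean of 1 TPM required for the test. The other 8 genes were tested. Of these, Fosl1, Atf3 and Fos averaged under 1 TPM in untreated wild type and passed through the groups where they were higher. The counts of tested genes and the ranks of Fosl1 and Atf3 given here are therefore descriptions and support nothing further. TPM alone cannot separate fewer expressing cells from less RNA per cell.

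**Figure D1:**
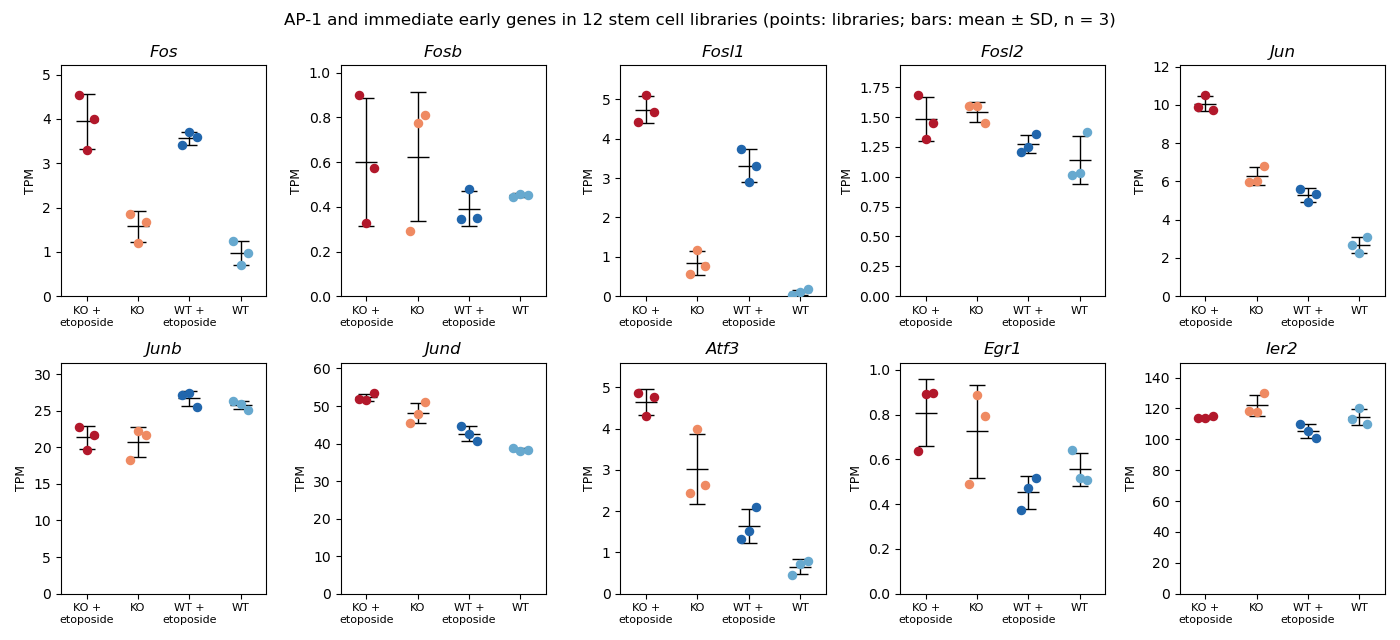
TPM of the 10 genes, one panel a gene with its own axis from 0; points are libraries and bars are the mean ± SD of 3 libraries. Fosl1 lies at 4.43 to 5.10 TPM in treated knockout and 2.90 to 3.74 TPM in treated wild type, against 0.0409 to 0.172 TPM in untreated wild type, and Jun lies in steps with treated knockout highest.

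Among the Fos family, Fosl1 and Fos were the genes that responded to etoposide. Fosl1 (chr19:5497726-5505966, plus strand, GRCm39), which encodes FRA-1, a Fos protein without the strong activation domain of Fos, had 4.43, 5.10 and 4.69 TPM in treated knockout libraries, against 0.573, 1.17 and 0.762 TPM in untreated knockout libraries. It had 3.74, 2.90 and 3.30 TPM in treated wild-type libraries, against 0.0409, 0.0963 and 0.172 TPM in untreated wild-type libraries. No treated library overlapped an untreated one, and every untreated knockout library lay above every untreated wild-type library. Mean TPM was 5.67-fold higher with etoposide in the knockout and 32.1-fold higher in wild type, the second over a level of only 0.112 to 0.428 reads deep per base. On the log2(TPM + 1) scale, which shrinks changes of low genes, Fosl1 rose by 1.66 ± 0.131 in the knockout (SE; limma, Benjamini-Hochberg adjusted p = 2.27e-06) and by 1.96 ± 0.131 in wild type (adjusted p = 2.12e-07). These were the 3rd highest change in the knockout and the 19th highest in wild type among all genes tested. Fosl1 passed the filter through the treated groups, so these ranks are a description only. Untreated libraries covered Fosl1 at only 1.36 to 2.57 reads per base in the knockout and 0.112 to 0.428 in wild type. Over that depth, Fosl1 without etoposide was 8.11-fold higher in the knockout than in wild type (0.72 ± 0.131, adjusted p = 0.000673). With etoposide it averaged 4.74 ± 0.341 TPM in the knockout and 3.31 ± 0.423 TPM in wild type (SD, n = 3 each), a difference of 0.41 ± 0.131 (adjusted p = 0.0223). That last call was lost with a pseudocount of 0.1 (0.167), and without treated knockout replicate 2 (0.0783) or 3 (0.051) or treated wild-type replicate 2 (0.0839) or 3 (0.0539), each value an adjusted p. Fosl1 shares 2776 bases with Ccdc85b on the opposite strand, and the use of strand in counting is not given in the sources used here. Ccdc85b averaged 4.63 TPM in treated and 4.97 TPM in untreated knockout, 4.68 TPM in treated and 3.92 TPM in untreated wild type.

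Fos (chr12:85520664-85524048, plus strand, GRCm39), the founding partner of Jun in AP-1, had 4.53, 3.31 and 3.99 TPM in treated knockout libraries, against 1.86, 1.19 and 1.67 TPM in untreated knockout libraries. In wild type it had 3.41, 3.70 and 3.58 TPM with etoposide, against 1.24, 0.694 and 0.977 TPM without. Treated libraries lay above untreated ones in both genotypes, while the genotypes overlapped with and without the drug. Etoposide raised Fos by 0.94 ± 0.137 on the log2 scale in the knockout (SE; limma, Benjamini-Hochberg adjusted p = 0.000314), or 2.51-fold in mean TPM, and by 1.22 ± 0.137 in wild type (adjusted p = 2.35e-05), or 3.67-fold. Without the drug Fos was 0.38 ± 0.137 higher in the knockout (adjusted p = 0.035). This call rests on single libraries: it was lost without untreated knockout replicate 1 (adjusted p = 0.124) or 3 (0.0906) and without untreated wild-type replicate 2 (0.137) or 3 (0.0676), and also with no filter on low genes (0.0781) or a fit of the 2 groups alone (0.0812). With the drug the genotypes differed by 0.11 ± 0.137 (95% interval -0.19 to 0.41, adjusted p = 0.555).

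Fosl2 did not pass for etoposide, and Fosb was too low to be tested. Fosl2, which encodes FRA-2, had 1.68, 1.32 and 1.45 TPM in treated knockout and 1.59, 1.59 and 1.45 TPM in untreated knockout libraries, against 1.21, 1.25 and 1.36 TPM in treated wild-type and 1.02, 1.03 and 1.37 TPM in untreated wild-type libraries. The knockout libraries without etoposide all lay above their wild-type counterparts, but the difference of 0.25 did not pass (limma, Benjamini-Hochberg adjusted p = 0.0681). It did so without untreated wild-type replicate 3 (adjusted p = 0.0362). For etoposide the Fosl2 differences were -0.04 in the knockout (adjusted p = 0.842) and 0.09 in wild type (adjusted p = 0.558). Fosb, an immediate early partner of Jun best known from neurons, stayed between 0.291 and 0.899 TPM in the 12 libraries and its groups overlapped in every pair.

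The Jun family moved by genotype, its members in opposite directions. Jun (chr4:94937273-94940459, minus strand, GRCm39), the strongest transactivator of the family, had 9.90, 10.5 and 9.75 TPM in treated knockout libraries and 5.97, 6.00 and 6.80 TPM in untreated knockout libraries. In wild type it had 5.63, 4.92 and 5.34 TPM with etoposide, against 2.68, 2.24 and 3.11 TPM without. No 2 of the 4 groups overlapped. Untreated knockout libraries lay above treated wild-type ones, but this difference, tested after the data were seen, did not pass (0.20, limma, Benjamini-Hochberg adjusted p = 0.0798). Jun was 0.99 ± 0.092 higher in the knockout than in wild type without etoposide (SE; limma, Benjamini-Hochberg adjusted p = 3.57e-06), 2.34-fold in mean TPM. With etoposide the knockout was 0.81 ± 0.092 higher (adjusted p = 2.24e-05), 1.90-fold. The drug raised Jun by 0.61 ± 0.092 in the knockout (adjusted p = 0.000428) and by 0.78 ± 0.092 in wild type (adjusted p = 3.36e-05), 1.61-fold and 1.98-fold. Among all genes tested Jun held rank 136 from the top in the untreated comparison of genotypes and rank 121 in the treated one. Its upstream window is the one printed with TGACATCA in capitals.

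Junb (chr8:85703538-85705377, minus strand, GRCm39), a Jun protein that can restrain Jun at shared sites, went the other way. It had 22.7, 19.7 and 21.7 TPM in treated knockout and 18.3, 22.2 and 21.7 TPM in untreated knockout libraries, against 27.1, 27.4 and 25.6 TPM in treated wild-type and 26.3, 25.9 and 25.1 TPM in untreated wild-type libraries. All 6 knockout libraries lay below all 6 wild-type libraries. Junb fell by 0.31 ± 0.071 in the knockout without etoposide (SE; limma, Benjamini-Hochberg adjusted p = 0.00335) and by the same amount under the drug (adjusted p = 0.00381). Treatment moved it by 0.05 in the knockout (95% interval -0.11 to 0.20) and by 0.05 in wild type (-0.11 to 0.20), which did not pass (adjusted p = 0.693 and 0.646).

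Jund (chr8:71150389-71153265, plus strand, GRCm39), the broadly expressed member that is less tied to growth signals, had 51.8, 51.5 and 53.5 TPM in treated knockout and 45.6, 47.9 and 51.0 TPM in untreated knockout libraries. It had 44.7, 42.5 and 40.6 TPM in treated wild-type and 38.8, 38.1 and 38.4 TPM in untreated wild-type libraries. Knockout libraries lay above wild-type ones under both conditions. Jund was 0.32 ± 0.045 higher in the knockout without the drug (SE; limma, Benjamini-Hochberg adjusted p = 0.00011) and 0.29 ± 0.045 higher with it (adjusted p = 0.000273). After etoposide it was 0.14 ± 0.045 higher in wild type (adjusted p = 0.0258) and 0.12 ± 0.045 higher in the knockout, where it did not pass (adjusted p = 0.0787). The wild-type call was lost with median-of-ratios scaling (0.128), with FPKM (0.0532), and without treated replicate 1 (0.104) or 2 (0.0573) or untreated replicate 2 (0.0727) or 3 (0.06), each an adjusted p. The knockout change passed without untreated knockout replicate 3 (0.0256).

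Summed over the family, Jun, Junb and Jund gave 83.7 ± 1.76 TPM in treated and 75.1 ± 4.91 TPM in untreated knockout, and 74.6 ± 2.95 TPM in treated and 66.9 ± 0.818 TPM in untreated wild type (SD, n = 3 each). Jun made up 12.0% of that sum in treated and 8.33% in untreated knockout, against 7.10% in treated and 4.00% in untreated wild type. Junb supplied 25.5% and 27.5% in the treated and untreated knockout, against 35.8% and 38.5% in treated and untreated wild type. Jund was the main part in every group, at 57.1% to 64.1%. The Fos family summed to 10.8 ± 0.742 TPM in treated and 4.58 ± 0.226 TPM in untreated knockout, and to 8.54 ± 0.191 TPM in treated and 2.67 ± 0.354 TPM in untreated wild type. Fosl2 was its largest part by mean in untreated wild type at 42.8%, with Fosl1 at 3.83%. Fosl1 was the largest in treated knockout at 44.3%, and held 18.1% in untreated knockout and 38.7% in treated wild type. Fos held 36.5% in treated and 34.6% in untreated knockout, 41.7% in treated and 36.2% in untreated wild type. By mean, Fos was the largest part in treated wild type and, close to Fosl2 at 33.8%, in untreated knockout. Jun family RNA exceeded Fos family RNA 7.80-fold in treated and 16.4-fold in untreated knockout, 8.74-fold in treated and 25.4-fold in untreated wild type.

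**Figure D2:**
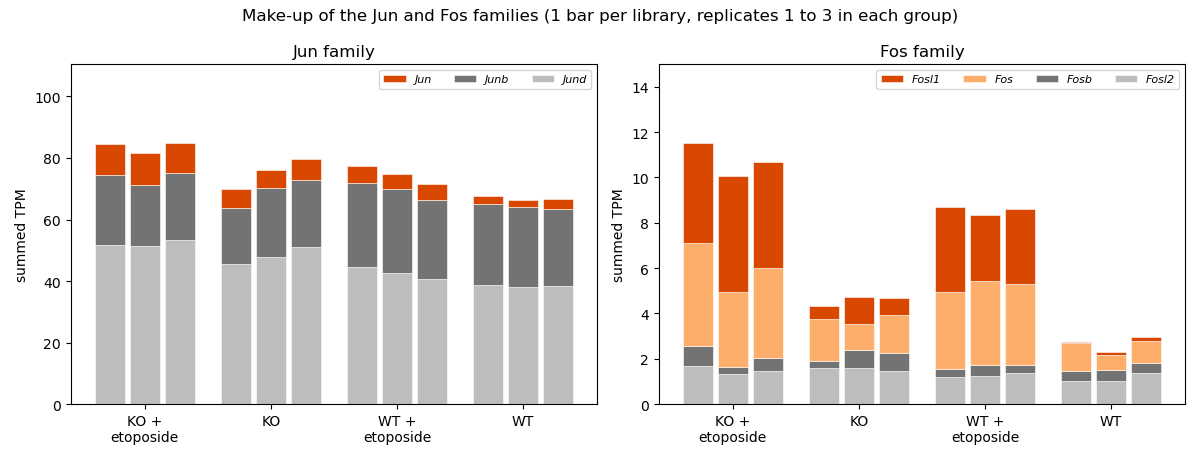
Summed TPM of the Jun family (left) and the Fos family (right), one stacked bar a library, grouped as knockout with etoposide, knockout, wild type with etoposide and wild type. Jund and Junb fill most of each Jun bar, and the Fosl1 segment at the top of the Fos bars goes with etoposide, at 44.3% and 38.7% of the sum in treated knockout and treated wild type.

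Atf3 (chr1:190902493-190915530, minus strand, GRCm39), a stress-induced partner of Jun that represses many targets as a homodimer, was higher in the knockout and, by a smaller step, after etoposide. It had 4.87, 4.30 and 4.77 TPM in treated knockout and 2.44, 4.00 and 2.63 TPM in untreated knockout libraries. Wild type had 1.32, 1.51 and 2.10 TPM with etoposide, against 0.451, 0.726 and 0.796 TPM without. No 2 of the 4 groups overlapped, and as for Jun the untreated knockout lay above treated wild type. Untreated wild-type libraries covered Atf3 at only 1.24 to 1.98 reads per base. Over that level, without the drug, Atf3 was 1.26 ± 0.156 higher in the knockout (SE; limma, Benjamini-Hochberg adjusted p = 3.61e-05), 4.59-fold in mean TPM, rank 67 from the top of all genes tested. With it the difference was 1.10 ± 0.156 (adjusted p = 0.000134), 2.83-fold and rank 66. Atf3 passed the filter through the groups where it was higher, so these ranks are a description only. Etoposide raised Atf3 by 0.67 ± 0.156 in wild type (adjusted p = 0.00543). In the knockout it did so by 0.51 ± 0.156 (adjusted p = 0.0321), which was lost with a pseudocount of 0.1 (0.0763), with no filter on low genes (0.0762) and on leaving out any single knockout library except untreated replicate 2, where the adjusted p was 0.00655; over all these omissions it went up to 0.117.

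Egr1 was too low for the test, and Ier2 was the highest of the 10 genes. Egr1, a zinc finger factor and a standard readout of ERK signalling, had 0.637, 0.891 and 0.897 TPM in treated knockout and 0.492, 0.888 and 0.796 TPM in untreated knockout libraries. Wild type had 0.372, 0.472 and 0.517 TPM with etoposide and 0.641, 0.517 and 0.509 TPM without. Treated knockout libraries lay above treated wild-type ones, and the other pairs that differ in 1 factor overlapped. With no filter on low genes, the limma difference with etoposide was 0.31 ± 0.096 (SE; Benjamini-Hochberg adjusted p = 0.0419), and with the filter set at 0.5 TPM its adjusted p was 0.0524. Ier2 had 113.7, 113.6 and 114.8 TPM in treated knockout and 118.6, 117.9 and 130.0 TPM in untreated knockout, against 110.0, 105.4 and 100.9 TPM in treated and 112.8, 120.2 and 110.2 TPM in untreated wild-type libraries. Its changes, of -0.12 to 0.11 over the 4 comparisons, did not pass, although that with etoposide in wild type did so under median-of-ratios scaling (adjusted p = 0.0158), in FPKM (0.0444), and when treated replicate 1 (0.0384) or untreated replicate 3 (0.0478) was left out. The treated genotype difference passed without treated wild-type replicate 1 (0.0362) and in a fit of those groups alone (0.0352), and the untreated one without wild-type replicate 2 (0.0427).

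**Figure D3:**
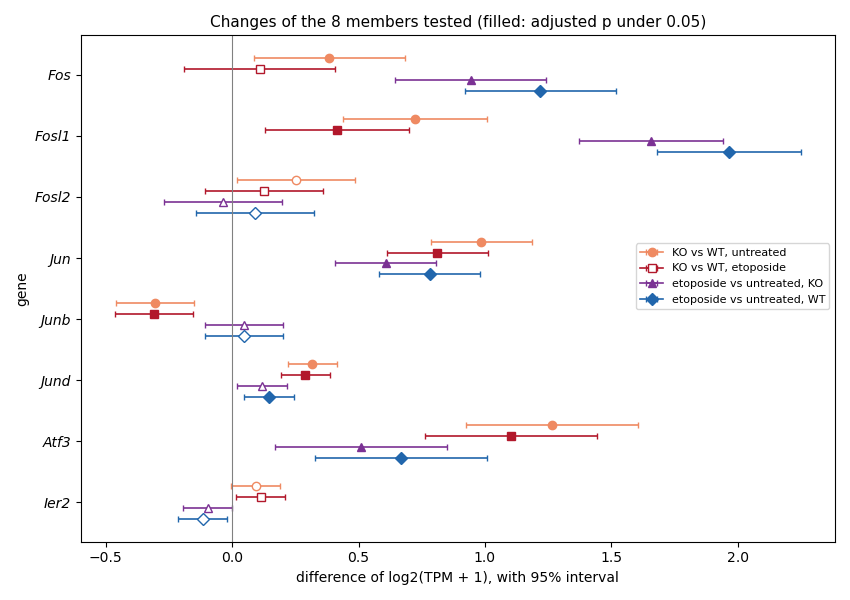
Differences of log2(TPM + 1) for the 8 genes tested, with 95% intervals, in 4 comparisons; filled marks have an adjusted p under 0.05. Fos and Fosl1 have their highest values for etoposide, at 0.94 to 1.96, Jun and Atf3 theirs for genotype, at 0.81 to 1.26, and Junb lies at -0.31 for genotype and 0.05 for etoposide.

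By count, the untreated comparison of genotypes called 5 of the 8 tested genes higher and 1 lower in the knockout, where 28.1% of all genes tested were called higher and 21.5% lower (49.6% in all). Under etoposide 4 were called higher and 1 lower in the knockout, against 22.5% higher and 21.7% lower of all genes (44.1% in all). Etoposide itself called 4 higher and 0 lower in the knockout, against 14.5% and 10.5% of all genes (25% in all). In wild type it called 5 higher and 0 lower, against 20.8% and 13.5% of all genes (34.3% in all). With median-of-ratios scaling the share of higher genes among all calls there was 45.5% in place of 60.7%. That share was 50.3% in place of 57.9% for etoposide in the knockout. Between genotypes it was 48.7% in place of 56.6% without the drug and 50.1% in place of 50.9% with it.

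Whether the response to etoposide differed between genotypes was tested by the interaction, the change in the knockout minus that in wild type. None of the 8 genes passed (0 by limma with Benjamini-Hochberg adjustment, 0 at an unadjusted p under 0.05 and 0 under each alternative run), where 1.23% of all genes did, 0.0709% higher and 1.16% lower. Estimates were -0.28 for Fos (95% interval -0.70 to 0.15), -0.31 for Fosl1 (-0.71 to 0.09), -0.17 for Jun (-0.46 to 0.11) and -0.16 for Atf3 (-0.64 to 0.32). Intervals of this width do not show that the responses were alike.

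A comparison added after the data were seen set untreated knockout against treated wild type, groups that differ in genotype and drug, to place the effects against each other. Its 8 tested genes held 3 called higher and 3 lower, against 25.1% and 28.2% of all genes (53.4% in all). Fos and Fosl1 were lower in the untreated knockout, with differences of -0.84 ± 0.137 (SE; limma, Benjamini-Hochberg adjusted p = 0.000282) and -1.24 ± 0.131 (adjusted p = 7.97e-06). Junb was also lower, at -0.36 ± 0.071 (adjusted p = 0.00113). Atf3 was higher by 0.60 ± 0.156 (adjusted p = 0.00664), Jund by 0.17 ± 0.045 (adjusted p = 0.00644) and Ier2 by 0.21 (adjusted p = 0.00184). Jun, at 6.26 ± 0.472 TPM in untreated knockout and 5.30 ± 0.356 TPM in treated wild type (SD, n = 3 each), did not pass (0.20, adjusted p = 0.0798). This comparison shares its libraries with the other 4, so its values are not further evidence for them.

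Genes around AP-1 were read from lists, whose counts stand against 49.6% and 44.1% of all genes called between genotypes without and with etoposide, and 25% and 34.3% called for the drug in knockout and wild type. Of 32 other immediate early genes tested, 9 were higher and 5 lower in the knockout without etoposide, and 15 higher and 5 lower with it, 43.8% and 62.5% of the list. The drug left 7 higher and 6 lower in the knockout (40.6%) and 9 of each in wild type (56.2%). Plk2 and Btg2, a kinase and an antiproliferative gene that are also p53 targets, led the drug response. Plk2 averaged 172 TPM in treated and 82.4 TPM in untreated knockout, 124 TPM in treated and 32.1 TPM in untreated wild type. Btg2 averaged 164 TPM in treated and 75.0 TPM in untreated knockout, 141 TPM in treated and 41.2 TPM in untreated wild type. Their drug response was smaller in the knockout, with interactions of -0.86 (limma, Benjamini-Hochberg adjusted p = 9.8e-06) for Plk2 and -0.64 (adjusted p = 3.83e-05) for Btg2, and so was that of Ccn1, a matrix protein gene, at -0.42 (adjusted p = 0.0353). Ccn1 itself was 1.22 higher in the knockout without etoposide (adjusted p = 1.69e-08) and Ccn2, its relative, 0.61 higher (adjusted p = 2.48e-06).

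Of 21 other leucine zipper factors tested, 15 were higher and 0 lower in the knockout without etoposide, and 12 higher and 0 lower with it, 71.4% and 57.1% of the list. Of all genes 28.1% and 22.5% were called higher there, and the median changes were 0.20 and 0.18 in the list and 0.04 and 0.02 over all genes. The rises included Ddit3, the stress factor CHOP, at 19.4 TPM in untreated knockout and 9.36 TPM in untreated wild type (0.98, limma with Benjamini-Hochberg adjusted p = 7.33e-06). Creb3, a membrane-tethered factor, was 0.57 higher (adjusted p = 7.17e-06). Etoposide called 0 higher and 4 lower of these in the knockout (19%), and 5 higher and 5 lower in wild type (47.6%). Atf4, a partner of Ddit3 in the stress response, fell by 0.11 after the drug in the knockout (adjusted p = 0.00817) and by 0.19 in wild type (adjusted p = 9.04e-05).

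Of 21 genes of the JNK and p38 cascades tested, 11 were higher and 1 lower in the knockout without etoposide (57.1%). With etoposide 8 were higher and 1 lower (42.9%). All genes called there made up 49.6% and 44.1%. By direction 28.1% and 22.5% of all genes were called higher and 21.5% and 21.7% lower, so the calls of this list lay more to the higher side. The drug raised 7 and lowered 1 in the knockout (38.1%) and raised 9 and lowered 0 in wild type (42.9%). Map3k20, which encodes the stress kinase ZAK, averaged 35.3 TPM in treated and 21.0 TPM in untreated knockout, 29.8 TPM in treated and 11.5 TPM in untreated wild type. Its drug response was smaller in the knockout (interaction -0.58, limma with Benjamini-Hochberg adjusted p = 0.00463). Map2k4, which activates JNK, rose with the drug by 0.24 in the knockout (adjusted p = 0.000907) and by 0.34 in wild type (adjusted p = 3.72e-05), and Mapk9, which encodes JNK2, by 0.27 (adjusted p = 7.34e-05) and 0.30 (adjusted p = 1.76e-05). Map2k7 and Mapk8 of the same list did not pass for the drug in the knockout (-0.02 and -0.06, adjusted p = 0.829 and 0.501). Nor did they in wild type (0.04 and 0.03, adjusted p = 0.524 and 0.722). For the ERK cascade, 16 of 17 genes were tested, of which 8 were higher and 4 lower in the knockout without the drug (75%), and 8 and 3 with it (68.8%). Etoposide left 0 higher and 3 lower in the knockout (18.8%), 2 higher and 6 lower in wild type (50%). Dusp6, a phosphatase induced by ERK and 1 of the 8 higher without the drug, averaged 16.9 TPM in untreated knockout and 11.2 TPM in untreated wild type (0.56, adjusted p = 6.32e-06). The 4 lower there were Map2k1, Mapk3, Nras and Spry4. Of these, Spry4 averaged 8.74 TPM in untreated knockout and 12.3 TPM in untreated wild type (-0.46, adjusted p = 0.0123).

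Serum response factor and its partners, 11 genes, were called 4 higher and 0 lower in the knockout without the drug (36.4%) and 5 and 0 with it (45.5%). Etoposide called 3 higher and 1 lower in the knockout (36.4%), and 3 higher and 0 lower in wild type (27.3%). Elk3, a cofactor of serum response factor, was 0.45 higher in the untreated knockout (limma, Benjamini-Hochberg adjusted p = 2.64e-05). Of 17 genes often described as AP-1 targets that were tested, 6 were higher and 5 lower in the knockout without etoposide (64.7%), 5 and 4 with it (52.9%); all genes also divided between higher and lower there. The drug left 3 higher and 6 lower in the knockout (52.9%), 5 higher and 7 lower in wild type (70.6%). Lif, the cytokine that sustains mouse stem cells, averaged 14.2 TPM in treated and 7.28 TPM in untreated knockout, 11.8 TPM in treated and 5.05 TPM in untreated wild type. It rose with the drug by 0.88 in the knockout (adjusted p = 1.63e-06) and 1.08 in wild type (adjusted p = 1.03e-07). Vim, an intermediate filament gene, fell by 0.52 in the untreated knockout (adjusted p = 4.03e-09), and Spp1, a secreted phosphoprotein gene, by 0.47 after etoposide in both genotypes (adjusted p = 3.4e-05 in the knockout and 1.67e-05 in wild type). Krt8 and Krt18 of this list are also among the trophectoderm markers.

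**Figure D4:**
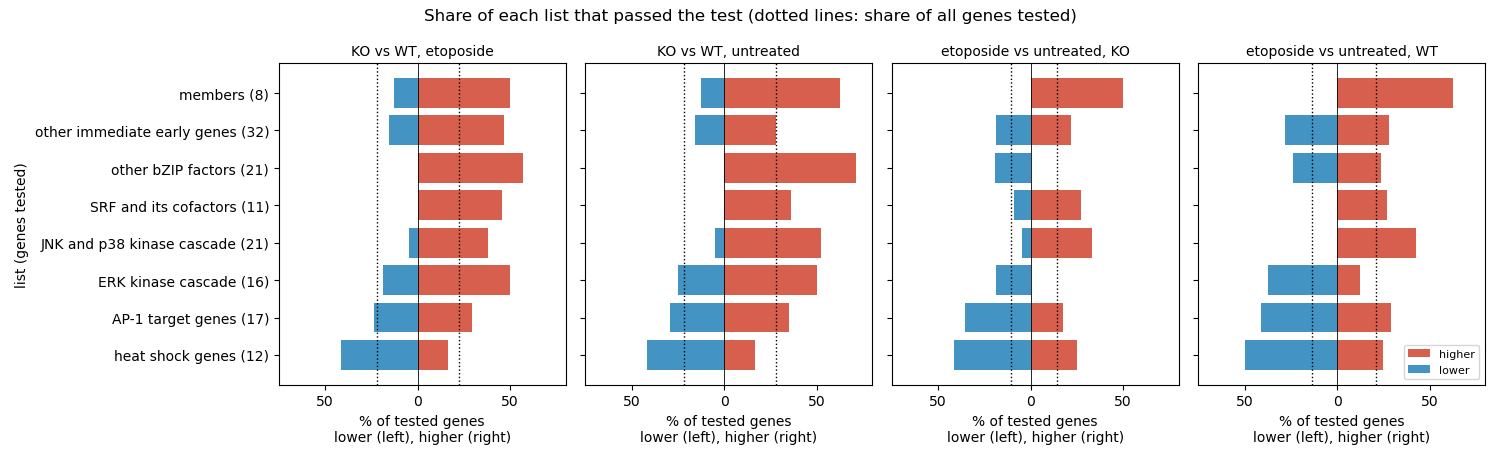
Share of each list called higher (right of 0) or lower (left of 0) in 4 comparisons, with the number of genes tested beside its name; dotted lines mark the share of all genes tested. For etoposide, 4 and 5 of the 8 genes described here were called higher in knockout and wild type and 0 lower. Of all genes 14.5% and 20.8% were called higher and 10.5% and 13.5% lower. Fosl1, Atf3 and Fos passed the filter through the groups where they were higher, so these counts are a description only. AP-1 targets have bars on both sides.

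Stress and cell state markers moved beside these results. Of 12 heat shock genes tested, 2 were higher and 5 lower in the knockout under either condition (58.3%, against 49.6% and 44.1% of all genes). The drug left 3 higher and 5 lower in the knockout (66.7%) and 3 higher and 6 lower in wild type (75%). Inducible Hspa1a averaged 3.82 TPM in treated and 1.99 TPM in untreated knockout, 2.59 TPM in treated and 0.777 TPM in untreated wild type, while the constitutive Hspa8 fell by 0.17 and 0.26 with the drug in knockout and wild type (limma, Benjamini-Hochberg adjusted p = 5.3e-06 and 5.94e-08). The 7 stem cell markers summed to 7031 to 7356 TPM in treated and 7406 to 7520 TPM in untreated knockout, 7607 to 7925 TPM in treated and 8084 to 8098 TPM in untreated wild type. Dppa5a and Pou5f1, the highest of them, were called lower in the knockout under both conditions, while under etoposide Nanog (716 TPM in knockout and 685 TPM in wild type), Zfp42 (687 and 649 TPM) and Esrrb (423 and 386 TPM) were called higher. Extraembryonic endoderm markers, 8 genes, summed to 86.6 to 94.2 TPM and 103 to 112 TPM in treated and untreated knockout, 62.8 to 64.7 TPM and 67.6 to 71.9 TPM in treated and untreated wild type, most of it Lama1. Trophectoderm markers, 8 genes, summed to 70.9 to 76.3 TPM and 79.1 to 83.2 TPM in treated and untreated knockout, 86.4 to 89.1 TPM and 90.3 to 95.4 TPM in treated and untreated wild type. Tfap2c (32.4 TPM in untreated knockout and 47.7 TPM in untreated wild type) and Eomes were called lower in the knockout under both conditions, Cdx2 was called higher under both (3.25 and 2.11 TPM without the drug), and Gata3 was called higher under etoposide. Krt8 and Krt18 did not pass between genotypes. The part of these shifts in the changes of Jun, Atf3, Fos and Fosl1 was not tested.

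The genes whose log2(TPM + 1) followed each of 4 members most closely over the 12 libraries were taken by Pearson's r, as a description, since the libraries share their group steps. For Fos these were Zbtb5 (r = 0.991), Pi4k2b (0.986) and Chrnb4 (0.981). Chrnb4, a nicotinic receptor subunit gene, averaged 6.53 TPM in treated and 2.82 TPM in untreated knockout, 6.15 TPM in treated and 1.84 TPM in untreated wild type. For Jun they were Zbtb7a (0.987), Gna13 (0.986) and Myof (0.985), and for Atf3 they were Phlda1 (0.988), Gsto1 (0.982) and Slc25a20 (0.976). Phlda1 averaged 14.9 TPM in treated and 10.4 TPM in untreated knockout, 7.79 TPM in treated and 5.01 TPM in untreated wild type, the same order of groups as Atf3. Egr1, at its low level, had lower values, led by Acyp2 (0.925), Dennd4a (0.897) and Sh3gl1 (0.885).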

How the data were processed

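Trizol-extracted RNA was selected for poly(A), depleted of ribosomal RNA and turned into strand-specific libraries, per the labels' protocols. Per the submitters' processing notes, Trim Galore 0.6.6, cutadapt 3.4, HISAT2 2.2.1 and StringTie 2.2.1 were used with GRCm39. Per the file headers, the deposited TPM and FPKM values are StringTie levels scaled by gene length, TPM to a fixed total and FPKM by mapped fragments. The deposited coverage values are mean read depth per base and, with FPKM, gave the aligned gigabases. Since no table holds whole reads, count models were not applied.

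The 10 genes and all gene lists were chosen with earlier results of these data known. Genes averaging 1 TPM or more, 14107 in number, were fitted on log2(TPM + 1) by limma 3.58.1 (R 4.3.3) with 4 group means and a trend (residual degrees of freedom 8, prior 3.91). The Benjamini-Hochberg method adjusted p over all genes of a comparison, and values under 0.05 were calls. The code was tested on simulated data. Lists covered other immediate early genes, leucine zipper factors, serum response factor and its partners, JNK and p38, ERK, AP-1 targets, heat shock genes and markers of stem cells, feeder fibroblasts, extraembryonic endoderm and trophectoderm. From each list, genes with the 4 lowest adjusted p in a comparison could be named, and for Fos, Jun, Atf3 and Egr1 the 3 genes of highest r. Some further list genes, such as Spry4, Map2k7 and Mapk8, were named because they went another way than those. Alternatives were a pseudocount of 0.1, a filter of 0.5 or none, FPKM, median-of-ratios scaling, a replicate block, fits on compared groups alone, robust variances and leaving out each library. Other steps ran in pandas 2.3.3, numpy 2.4.6 and matplotlib 3.10.9 under Python 3.11.15.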

Additional observations from a re-analysis of the deposited data

How the results depend on the processing

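With FPKM in place of TPM, only 4 of the 10 genes passed the filter, and 3, 3, 1 and 2 of them were called in the untreated and treated comparisons of genotypes and for etoposide in knockout and wild type, with 3 in untreated knockout against treated wild type. The other alternatives kept each count of calls within 1.5 times. Leaving out single libraries gave 5 to 6, 4 to 6, 3 to 4 and 4 to 5 calls in the same 4 comparisons. Changes that turned sign had not been called. The Junb interaction was 0.007 with FPKM and 0.028 with median-of-ratios scaling, and that of Jund 0.003 with that scaling. Over single omitted libraries the interactions ran from -0.085 to 0.053 for Junb, -0.066 to 0.014 for Jund, -0.263 to 0.006 for Atf3 and -0.017 to 0.065 for Ier2. Over such omissions the etoposide changes in the knockout ran from -0.093 to 0.011 for Fosl2 and -0.037 to 0.101 for Junb. The cause was not tested. With the replicate number as a block, 6, 5, 4 and 5 genes were called in the same 4 comparisons, the counts without it, and no single call changed. Same-numbered libraries did not deviate together (correlations -0.045 to 0.045). These values cannot show whether such libraries were grown or prepared together. Genes near 1 TPM, such as Egr1 and Fosb, are limited by depth, at 0.689 to 2.59 reads per base.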
